A study of Saccharomyces cerevisiae with 116 samples.

Results

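The proteins of the small (40S) subunit of the cytosolic ribosome are encoded in budding yeast by the RPS genes, and 55 of them, from RPS0A to RPS31, were followed through a set of diploid Saccharomyces cerevisiae lines that had gained, lost or kept chromosomes. Members were chosen by their locus tags, among 7126 features counted. RPS genes of chromosome IX were not used here. All 55 carry an RPS symbol in the reference annotation. Of these genes, 46 form 23 complete paralog pairs, 8 are single genes, and RPS24A is considered without its partner.

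RNA was sequenced in 116 libraries. They come from mutation accumulation, in which lines of 1 diploid ancestor are passed through single colonies so that chromosome changes persist. The HH experiment began with a homozygous S288C derivative (ho and ura 3-52, leu2-3.112, lys2-801, ade2, his3-delta-D200) and ran for 2063 generations. The Hh experiment began with a heterozygous cross of derivatives of the oak strain YPS606 and of DBPVG1106 (ho, ura3) and ran for 2108 generations. The labels give 11 euploid and 10 aneuploid HH lines, 5 euploid and 10 aneuploid Hh lines, and both ancestors, all grown in glucose medium at log phase without further treatment. Each line is 1 lineage, with its own point mutations beside any chromosome change, and was read in 3 colonies. Run 1 of the HH ancestor has 3 libraries and run 2 has 2, and the Hh ancestor has 3.

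Among the HH aneuploid lines, the label is trisomy V for HH117 and HH123, trisomy VIII with monosomy IX for HH108, trisomy XIV for HH9, trisomy XVI for HH112, trisomy I and VII for HH152, trisomy IX for HH15, HH88 and HH119, and monosomy IX for HH29. In Hh it is trisomy V for Hh4 and Hh49, trisomy VII for Hh59 and Hh61, trisomy XII for Hh77, trisomy XV with monosomy I for Hh11, trisomy IX and XIV with partial X for Hh76, tetrasomy XVI for Hh8, and trisomy I for Hh7 and Hh18. Members lie on chromosomes V, VII, VIII, X, XII, XIV, XV and XVI among these, so a copy change of a member could be followed in 6 HH and 8 Hh lines with whole chromosomes gained. No member lies on a chromosome labelled monosomic.

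Libraries held 4129372 to 12148296 reads in genes. HH libraries fall into those with SC in their names and those with X, which were kept apart in the tests. Between 7.12% and 68.4% of reads aligned to more than 1 place, and these were not counted. Some libraries go against their karyotype label: genes of chromosome VII were not raised in the libraries labelled HH152 while those of VIII were, genes of XII were raised without a label in Hh18, and replicate 1 of HH123, Hh11 and Hh59 departed from the other colonies of its line. For the euploid line HH2, titles and descriptions disagree for replicates 2 and 3, and titles were followed. Tests and shifts that rest on HH152, Hh18 or replicate 1 of HH123, Hh11 and Hh59, the doubted libraries below, are given with and without them. The libraries of HH2 were not among those left out as doubted.

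The small subunit binds the messenger RNA, scans for the start codon and holds the decoding centre, where codon and anticodon are matched. Its proteins are made in near-equal numbers, and transcription of their genes is coordinated with growth through the factors Rap1, Fhl1, Ifh1 and Sfp1, which respond to nutrients and to TOR signalling. In S. cerevisiae most of them are kept as a pair of paralogs from an ancient genome duplication, with nearly identical proteins and often different introns and transcript levels.

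Paralogs can be told apart only where a read covers a base that differs between them. The coding sequences of RPS6A and RPS6B were 99.2% identical, and 63.1% of the windows of 75 bases, the length of a read, were the same in both. For RPS4 the figures were 98.1% and 29.1%. RPS9A and RPS9B were 90.9% identical, RPS25A and RPS25B 92.4%, and RPS27A and RPS27B, the most different pair, 84.3%. Reads within windows shared by both copies of RPS6 and of RPS4 were lost from both, so levels of these genes are low estimates and the ratio of the copies rests on part of their length. The stretches below are shown for the pairs whose ratio differed most between the experiments or that illustrate a low and a high number of differences. Each is 75 bases of the coding strand, written 5′ to 3′ from the R64 reference of RefSeq, with the bases that differ from the paralog in capitals. RPS6A lies on the minus strand at chrXVI:377861-377935 and RPS6B on the minus strand at chrII:592282-592356. RPS9A is on the plus strand at chrXVI:405655-405729 and RPS9B on the plus strand at chrII:605125-605199. RPS25A is on the minus strand at chrVII:534270-534344 and RPS25B on the minus strand at chrXII:795711-795785.
RPS6A: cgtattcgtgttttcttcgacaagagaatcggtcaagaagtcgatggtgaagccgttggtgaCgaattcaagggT
RPS6B: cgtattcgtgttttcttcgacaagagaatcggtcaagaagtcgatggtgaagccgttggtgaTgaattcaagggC
RPS9A: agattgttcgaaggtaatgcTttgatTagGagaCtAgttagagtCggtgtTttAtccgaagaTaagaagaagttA
RPS9B: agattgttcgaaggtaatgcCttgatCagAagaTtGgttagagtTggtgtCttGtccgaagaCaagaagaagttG
RPS25A: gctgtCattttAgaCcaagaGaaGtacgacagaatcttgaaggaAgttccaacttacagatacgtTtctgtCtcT
RPS25B: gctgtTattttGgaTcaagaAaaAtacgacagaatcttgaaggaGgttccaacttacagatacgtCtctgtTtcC
The RPS6 stretches differed at 2 bases, the RPS9 stretches at 10 and the RPS25 stretches at 9. Each was picked as the 75 bases of the last coding exon with the most differences, for RPS9 within its first part. A typical read thus covers fewer. Over the exon, 6 of 705 bases differed for RPS6, 52 of 581 for RPS9 and 25 of 327 for RPS25.

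The members moved together between libraries, and their promoters were examined for a core of the binding motif of Rap1, which recruits Fhl1 and Ifh1 to these genes. CCNTACAT, on either strand within 600 bases before the start codon, was present in 25 of 55 members (45.5%) and in 397 of 5999 promoters of all genes (6.62%). This spelling was kept after several had been tried on these promoters, so the shares are a description. Examples follow, each 60 bases on the gene's own strand, 5′ to 3′, with the matches in capitals. They are shown for pairs to which the results return. RPS6A and RPS6B have 2 matches each, and RPS9B has 1 and RPS9A none. RPS30A, the member with the highest level per length by counts in the HH ancestor, has 1 match and its paralog 2 adjoining ones. In R64 (RefSeq) they lie at chrXVI:378814-378873 (minus), chrII:593059-593118 (minus), chrII:604264-604323 (plus), chrXII:713346-713405 (minus) and chrXV:678992-679051 (minus).
RPS6A: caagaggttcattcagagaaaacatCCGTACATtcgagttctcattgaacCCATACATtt
RPS6B: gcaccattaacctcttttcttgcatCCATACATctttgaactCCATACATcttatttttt
RPS9B: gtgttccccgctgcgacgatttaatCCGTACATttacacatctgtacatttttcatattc
RPS30A: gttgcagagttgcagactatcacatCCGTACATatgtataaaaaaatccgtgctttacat
RPS30B: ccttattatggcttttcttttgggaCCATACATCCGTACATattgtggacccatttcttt
A match says only that these letters are present, and binding was not measured.

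The members together took 0.324% to 2.08% of reads in genes in the HH libraries named SC (median 1.35%), 0.356% to 7.13% in the HH libraries named X (median 1.34%) and 0.651% to 4.35% in the Hh libraries (median 1.71%). In these bulk cultures, fewer cells of a growth state and less RNA per cell cannot be told apart. In the HH ancestor the share was 1.12%, 1.40% and 1.35% in run 1 and 1.33% and 1.32% in run 2, and in the Hh ancestor 2.21%, 1.73% and 2.16%. All 3 Hh ancestor libraries were above those of both HH runs, and run 2 lay within run 1.

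Colonies of 1 line could differ widely. In HH112 the 3 colonies gave 7.13%, 0.961% and 1.65%, in HH152 2.82%, 1.48% and 7.13%, and in HH29 0.356%, 1.34% and 2.00%. In the euploid line HH4 they gave 0.365%, 0.324% and 1.10%, the lowest line mean in the series at 0.597% ± 0.438 (SD, n = 3). The highest colony was more than 2 times the lowest in 12 of 39 lines and ancestor groups, with a median ratio of 1.49 and the largest ratios in HH112 (7.42), HH29 (5.62) and HH152 (4.81). The high share in HH112 thus came from 1 colony of 3, and that in HH152 mainly from 1, whereas all colonies of Hh77 were high (3.13%, 4.35% and 2.74%), as were those of Hh18 (3.49%, 2.34% and 2.68%). Line means spanned 0.597% to 1.64% in euploid and 0.973% to 1.73% in aneuploid HH lines named SC, 1.195% to 1.59% and 1.23% to 3.81% in those named X, and 1.27% to 2.06% and 1.22% to 3.41% in Hh. The classes overlapped in all 3 sets. Colonies of a line also differed in the percent of reads aligned to more than 1 place. In HH115 the colonies gave shares of 0.958%, 1.51% and 2.31% at 18.6%, 19.5% and 68.4% of such reads. In HH4 that percent was 15.9%, 17.3% and 30.1%. Among the HH lines named X, the highest share and the highest percent fell on the same colony in HH29, HH50, HH115, HH117 and HH123. In each of these lines it was replicate 3. In HH29, however, the lowest share stood at 44.3% of such reads and the highest at 46.0%. In the remaining lines named X, HH112 (25.1%, 15.3% and 60.7%) and HH152 (30.5%, 34.0% and 24.7%), the highest share did not go with the highest percent. The part of this percent in the shares was not tested.

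**Figure D1:**
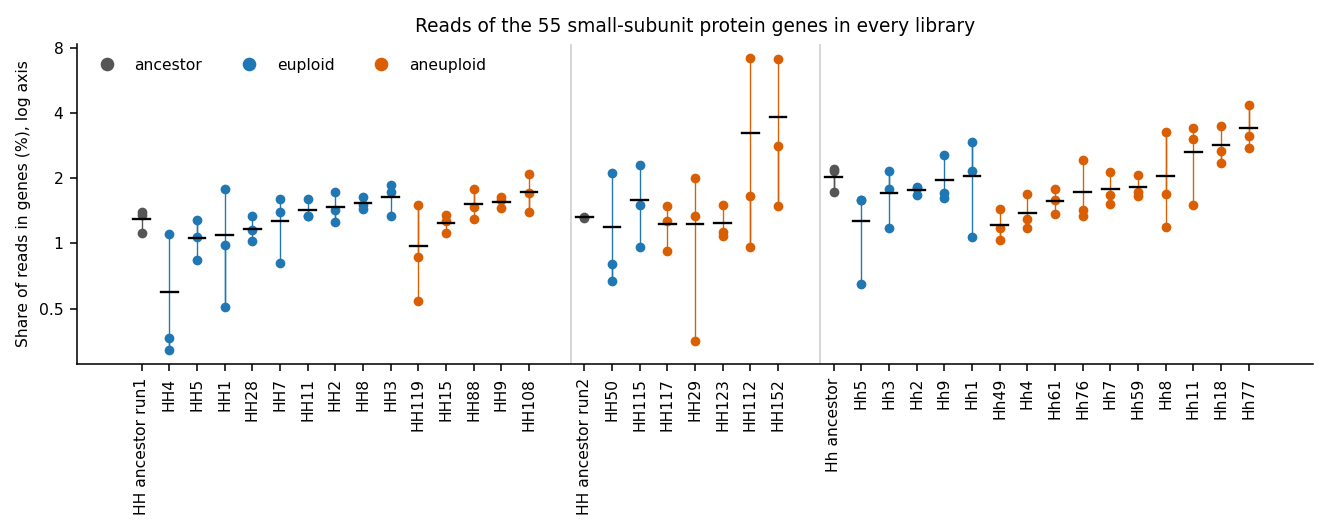
Share of reads in genes taken by the 55 small-subunit genes (percent, log axis), 1 point per library, with lines along the horizontal axis in the order HH named SC, HH named X and Hh, coloured by class, and black bars for the mean of a line. Points of 1 line spread over several times in HH112, HH29 and HH152, and single libraries of HH112 and HH152 reach 7.13%.

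This spread was shared by nearly all members. On the log2 scale the SD between colonies of a line (77 degrees of freedom) ran from 0.403 to 0.929 over the members, with a median of 0.650, while 5651 genes above 5 CPM (reads scaled to library size) had a median of 0.366. The median member lay above 90% of those genes. The 78 large-subunit genes had a similar median of 0.624. Across the 116 libraries the median level of the members followed that of the large-subunit genes (Pearson r = 0.992, Spearman rho = 0.982) and did so for the deviations of colonies from their line (r = 0.993). These points share libraries and scaling, so the correlations are a description. The deviations also moved with 40S assembly factors (r = 0.597) and, with the opposite sign, with general stress genes (r = -0.361) and with regulators of ribosomal protein genes (r = -0.396). The part of growth state in the results below was not tested.

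Members differed in how far they followed the shared change. The response of each gene was taken as its log2 change between colonies per log2 change of the median of the other members. It had a median of 0.987, exceeded 1 in 25 of 55 members, and the correlation with the other members was over 0.9 in 44. RPS22A (YJL190C), in the body of the subunit, had the largest response (1.45, r = 0.934), and among the next largest were RPS12 (1.26), RPS9B (1.24) and RPS13 (1.24). The smallest were RPS27A (YKL156W), a zinc-binding protein (0.257, r = 0.384), RPS7B (0.387, r = 0.581), RPS30B (0.44, r = 0.552) and RPS30A (0.561). RPS25B (0.602) and RPS9A (0.642) came next. Of these 6 genes, all but RPS30A are the copy of a pair that responded less than its partner.

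**Figure D2:**
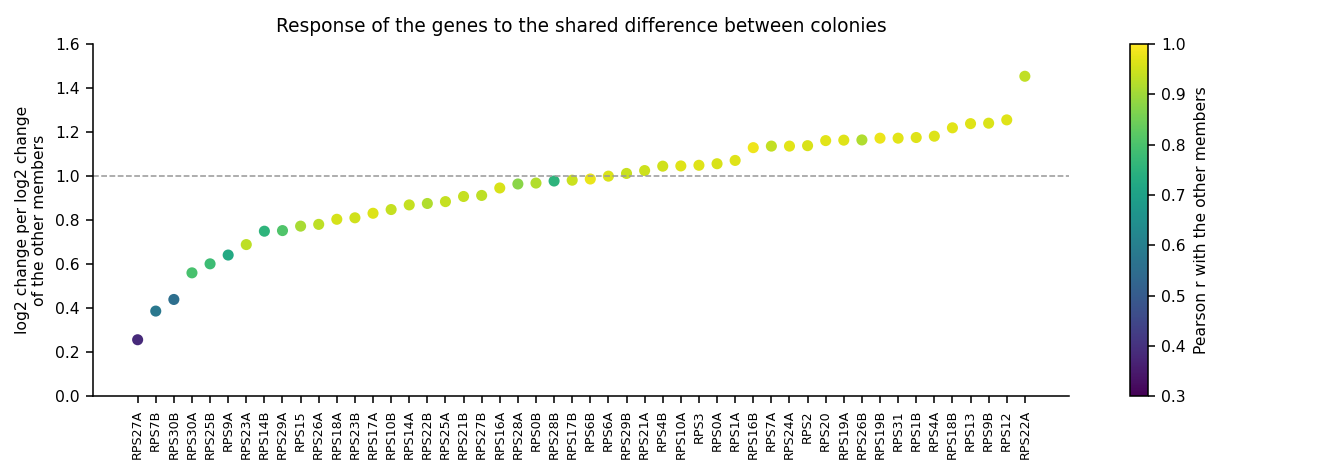
Response of small-subunit genes (log2 change between colonies of a line per log2 change of the median of the other members), ordered, with colour for Pearson r with the other members. RPS27A lies lowest at 0.257 and RPS22A highest at 1.45, with most genes near the dashed line at 1.

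Levels per length in the ancestors spanned a wide range among proteins that are needed in near-equal number. In the HH ancestor, run 1, the highest levels were those of RPS30A (3632 ± 619.6 CPM per kilobase of coding sequence, SD, n = 3), RPS26A, at the mRNA exit channel (2187 ± 584), and RPS30B (1649 ± 178). The lowest were RPS9A (35.5 ± 19.6), RPS28B (81.9 ± 37.7) and RPS22A (125.8 ± 36.2). In run 2 the order began with RPS30A (2760.0 ± 67.1, n = 2), RPS28A (1947 ± 312.5) and RPS31, which is made as a fusion to ubiquitin (1604 ± 293), and RPS9A (43.1 ± 7.69) and RPS14B (88.7 ± 20.6) were among the lowest. In the Hh ancestor RPS31 was highest (2811 ± 376, n = 3), then RPS30A (2432 ± 469), and the lowest were RPS9A (42.1 ± 7.29) and RPS6A (159 ± 29.6). RPS9A was last of 55 in all 3 groups. RPS26A and RPS30B in run 1, RPS31 and RPS30A in Hh, and RPS6A and RPS28B (177.6 ± 78.6) in Hh differed by less than the larger of their SDs, so their order is uncertain. The level of RPS6A is also a low estimate, as windows shared with RPS6B were lost. By counts, RPS30A exceeded the next member in both runs of HH by more than either SD. The log2 ratio of RPS30A to RPS30B was 1.13, 1.80 and 1.01 by counts in HH runs 1 and 2 and the Hh ancestor. By the deposited FPKM it was 0.19 ± 0.46, 0.89 ± 0.25 and -0.08 ± 0.27. By the deposited FPKM the median member stood at the 92.9th, 94.1st and 95.2nd percentile of features above 0 in the HH ancestor runs 1 and 2 and the Hh ancestor, with 12, 13 and 18 of 55 among the 200 highest.

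Several of these low members have transcripts that are known to be held down after transcription. RPS22B, which was not among the low members named above, is given with them for its known control. RPS14B (YJL191W), whose protein binds its own pre-mRNA, was read at 77.8, 57.8 and 68.5 CPM in HH run 1, at 43.1 and 30.9 in run 2, and at 107.9, 91.8 and 119.1 in the Hh ancestor. RPS28B (YLR264W), whose transcript is degraded when its protein is abundant, was read at 24.5, 16.6 and 9.08 in HH run 1, 55.03 and 20.6 in run 2, and 34.5, 21.1 and 53.1 in Hh. RPS9A (YPL081W), whose intron takes part in control by the Rps9 protein, was read at 34.4, 12.7 and 16.2, at 28.8 and 22.4, and at 25.6, 20.4 and 29.0. RPS22B (YLR367W), with an intron cut by RNase III, was read at 54.2, 77.2 and 84.1, at 60.2 and 75.3, and at 229.7, 185.9 and 181.6. RPS14B and RPS22B stood higher in the Hh ancestor in every library, while RPS28B and RPS9A overlapped between the ancestors.

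Between the strains, many members were higher in the Hh ancestor than in run 2 of the HH ancestor. Of 55 members, 37 passed the edgeR quasi-likelihood test (adjusted p under 0.05), where 50.0% of 6046 genes did. Higher in Hh were 36 members, against a background of 24.8% of genes higher, and lower was 1 member, against 25.2%. The median log2 difference was 0.81 over the members and -0.01 over all genes. Lists of other parts of the pathway were set beside this: 40 large-subunit genes of 75 rose and 4 fell (median 0.71), while 7 of 17 assembly factors of the 40S subunit fell and none rose (median -0.25). Of 11 regulators 3 rose and 1 fell, and of 13 general stress genes 4 rose and 2 fell. Each strain is 1 ancestor, so the p-values measure the spread between colonies.

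The largest rise was that of RPS22B, whose libraries are given above, at 1.57 on the log2 scale (SE 0.22, adjusted p = 0.000146, edgeR quasi-likelihood test with Benjamini-Hochberg adjustment). RPS14B, on the platform of the subunit, rose by 1.53 (SE 0.21, adjusted p = 0.000113, edgeR). RPS6B (YBR181C), a copy of the protein that is phosphorylated under TOR signalling, was read at 113.1 and 101.8 CPM in HH run 2 and at 321.0, 231.2 and 282.2 in Hh, a rise of 1.39 (SE 0.20). Its near-identical partner RPS6A (YPL090C) was read at 111.7 and 110.8 against 130.2, 89.5 and 119.3 (log2 difference 0.04, SE 0.19, adjusted p = 0.887 by edgeR), so its libraries overlapped while those of RPS6B did not. RPS1B, another platform protein, gave 289.9 and 270.6 against 785.4, 605.8 and 743.1 (1.36, SE 0.25), and RPS9B, a protein that bears on decoding accuracy, 228.3 and 262.1 against 672.5, 485.8 and 593.7 (1.27, SE 0.25). In each of them the lowest Hh library exceeded the highest library of run 2. The member that fell was RPS28A (YOR167C), which gave 442.2 and 352.0 in run 2 and 238.4, 173.4 and 240.5 in Hh (-0.85, SE 0.24, adjusted p = 0.0103, edgeR). Its partner RPS28B differed by -0.06 (SE 0.51). RPS21A (-0.41, SE 0.21) and RPS25B (-0.40, SE 0.21) were the next lowest and did not pass.

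The same HH ancestor also differed between its runs. Of 55 members 12 passed the edgeR quasi-likelihood test for run 2 against run 1, where 51.4% of genes passed: 4 were higher (background 27%) and 8 lower (background 24.3%), and the median was -0.25. The falls were RPS27A (-1.16, SE 0.20), RPS30B (-1.04), RPS21B (-0.97), RPS14B (-0.88), RPS26A (-0.77), RPS29A (-0.67), RPS26B (-0.63) and RPS25B (-0.56), and among the rises were RPS22A (1.16, SE 0.24), RPS28A (0.71) and RPS21A (0.61). Members moved in both directions although strain and genotype were the same. RPS28A was therefore higher in run 2 than both in run 1 and in Hh, and it was read at 252.0, 291.7 and 185.5 CPM in run 1, which overlapped the Hh ancestor. RPS14B was likewise lower in run 2 than in run 1 and in Hh. The 2 comparisons share the libraries of run 2. Which run the Hh ancestor belongs to is not given in the labels, so strain and run cannot be told apart. The count of 37 fell to 23 without replicate 1 of run 2, and the count of 12 fell to 6, 7 and 5 without run 1 replicate 3, run 2 replicate 1 and run 2 replicate 2. Leaving out a library of run 2 leaves it with 1, which is then assumed to vary like the other ancestor groups.

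**Figure D3:**
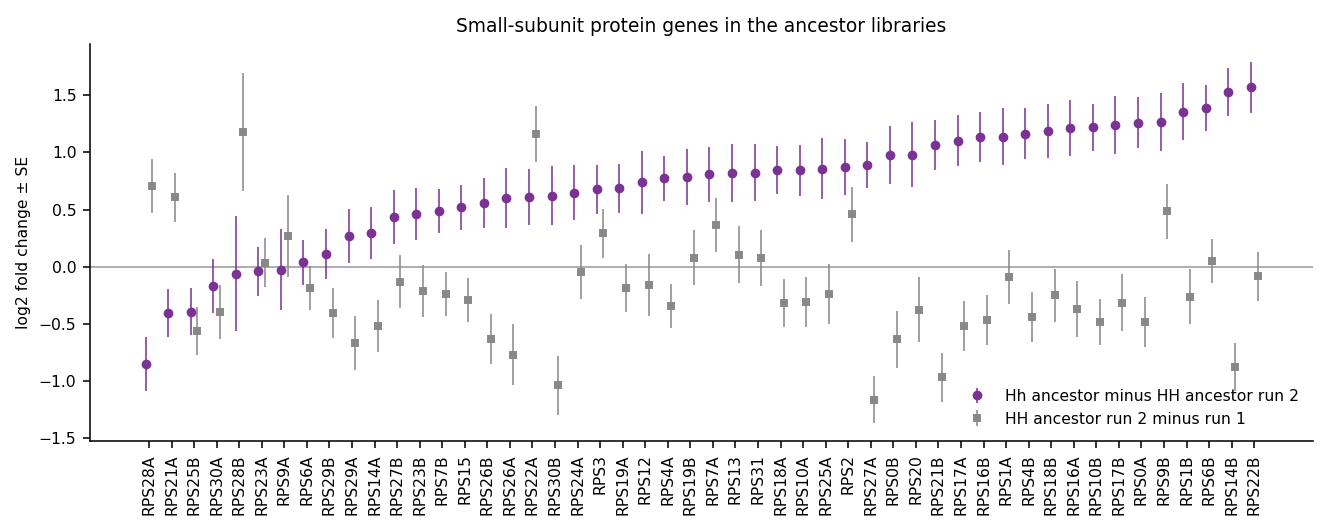
log2 fold change with its standard error for small-subunit genes, between the Hh ancestor and run 2 of the HH ancestor (circles) and between runs 2 and 1 of the HH ancestor (squares). Most circles lie above 0, with RPS22B highest at 1.57 and RPS28A lowest at -0.85, while the squares scatter on both sides of 0.

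Aneuploid lines were compared with euploid lines within each experiment, with the line as the replicate. In HH no member passed the edgeR quasi-likelihood test, and none of 6268 genes did (0%). At an unadjusted p under 0.05 there were 2 members, RPS7B among them, and DESeq2 called 0. No share over all genes is given beside these counts. The log2 difference was above 0 in 53 of 55 members, with a median of 0.34 against 0.01 over all genes. As the members share the level of their library, the 55 values are not independent of each other. In some aneuploid HH lines, 17 of the 55 also lie on chromosomes labelled as gained, which was not taken out here. RPS4B, on chromosome VIII, was among the highest at 0.59 (SE 0.29, adjusted p = 0.502, edgeR). That chromosome is labelled trisomic in HH108 and was raised without a label in HH152. For RPS4B the 11 euploid lines spanned 103.3 to 276.5 CPM with a median of 209.8. The 10 aneuploid lines spanned 160.1 to 780.0 with a median of 224.8, so the classes overlapped. RPS22A was at 0.58 (SE 0.39), and the lowest were RPS30B (-0.07, SE 0.14), RPS30A (-0.03, SE 0.17) and RPS27A (0.02, SE 0.18). None of these 5 passed. The median was 0.16 in the SC lines alone and 0.75 in the X lines alone, where HH112 and HH152 stand, and leaving out single lines moved it between 0.24 and 0.44. Without the doubted libraries it was 0.26, no member passed and 1 had an unadjusted p under 0.05. The large-subunit genes were above 0 in 72 of 77, with a median of 0.29.

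In Hh no member passed either, where 9.87% of 6189 genes did. Unadjusted p was under 0.05 for 10 members, DESeq2 called 2, and leaving out Hh4 or Hh8 gave 1 call each. The share over all genes is not given for these counts, so whether the members exceeded it cannot be read from them. The difference was above 0 in 54 of 55 members, with a median of 0.33 (0.04 over all genes). Of the 55, 29 lie on whole chromosomes labelled as gained in some aneuploid Hh lines, which was not taken out here. The smallest adjusted p was that of RPS3 (YNL178W), at the mRNA entry channel, at 0.0702 (log2 difference 0.54, SE 0.19, edgeR). It lies on chromosome XIV, which is labelled trisomic in Hh76. Its 5 euploid lines spanned 258.3 to 461.8 CPM (median 380.1) and its 10 aneuploid lines 356.7 to 697.6 (median 559). RPS31 (0.63, SE 0.31) and RPS1A (0.61, SE 0.28) had the largest differences, and both lie on chromosome XII, which was raised in Hh77 and, without a label, in Hh18. RPS27A (-0.27, SE 0.21), RPS27B (0.13, SE 0.22) and RPS25B (0.13, SE 0.32) were lowest. Without the doubted libraries the median was 0.24 and again no member passed the edgeR test. Of 6181 genes, 12 then passed as higher and 41 as lower, so the 9.87% above rests largely on those libraries. Unadjusted p was then under 0.05 for 2 members, with no share over all genes beside it. Large-subunit genes were above 0 in 70 of 75 (median 0.35), with 21 at an unadjusted p under 0.05 and 0 called.

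The class effects were tested against each other in 1 fit. No member passed the edgeR quasi-likelihood test of the interaction, where 5.09% of 6370 genes did, DESeq2 called 0, and 0 members had an unadjusted p under 0.05. The median difference of the effects, Hh minus HH, was 0.03.

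For members on gained chromosomes, the levels were compared with the labelled number of copies. A slope of 1 of log2 level on log2 copies stands for a change in proportion to the copies, and 0 for none. In HH 4 of 17 members had a slope that differed from 0 by the edgeR quasi-likelihood test (27.4% of 2248 genes on gained or lost chromosomes did) and 0 differed from 1 (8.01% of genes). In Hh 11 of 29 differed from 0 (36.3% of 2966 genes) and 0 from 1 (0.0337% of genes). At an unadjusted p under 0.05, 3 slopes in HH and 3 in Hh differed from 1, and no other tool was run for the slopes. Neither of these counts has a share over all genes beside it. The 4 in HH were RPS23A, RPS7B, RPS6A and RPS23B, with slopes of 1.88, 1.69, 2.74 and 2.46. RPS23A is on chromosome VII, which the libraries labelled HH152 did not show as raised. Without the doubted libraries, 6 of 12 HH members differed from 0 (40.8% of genes) and 2 from 1 (RPS6A and RPS23B, both in HH112; 4.48% of genes). In Hh 19 of 29 then differed from 0 (42.3% of genes). The doubted libraries were picked from these same data, so a higher count without them is partly set by that choice. The median slope of the members was 1.70 in HH (0.73 over all genes) and 1.33 in Hh (0.80). Every slope rests on 1 or 2 altered lines, and the standard errors were 0.56 to 1.12 in HH and 0.30 to 1.17 in Hh. The slopes moved with the shared level of the members in the altered line, from -1.42 for RPS26B and -0.65 for RPS24A on chromosome V, whose HH trisomic lines had the other members at -0.40 and -0.47 on the log2 scale, up to 2.74 for RPS6A on XVI in HH112. With the line's level of the other members as a covariate, an alternative chosen after seeing the data, these slopes on V became 0.44 and 0.85, and that of RPS6A 1.08 (SE 0.32). Then 9 of 17 HH members differed from 0 (29.1% of genes) and 3 from 1 (5.92% of genes), the last being RPS26A, RPS25A and RPS0A on chromosome VII of HH152, and the median was 0.85. Without the doubted libraries as well, 9 of 12 differed from 0 (43.1% of genes) and the median was 1.00. In Hh the covariate gave 11 of 29 (37.8% of genes) and a median of 0.70. Of these 11, 3 (RPS30B, RPS9A and RPS23B) were also among the 11 called without it, and the 6 on chromosome XII, which lie in Hh77, were no longer called. Without the doubted libraries as well, 15 of 29 were called (41.0% of genes), 6 of them among the 11, and the median was 0.92.

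The shift of a single gene in a single line was therefore taken after removing the part it shares with the other members: its log2 level less its own response times the median of the members on unaltered chromosomes, relative to lines of the same experiment and name series with 2 labelled copies. In proportion, 3 copies give 0.585 and 4 copies give 1. Over 54 values of members in lines labelled trisomic, the shift had a median of 0.54 and a range of -0.28 to 1.24, and 50 were above 0. Without HH152 there were 49 values with a median of 0.55, of which 48 were above 0. For the same chromosomes, the medians of the other genes centred on 0.51 with HH152 and on 0.53 without it. No shared level was removed from those genes, so the measures differ.

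The members with 3 labelled copies are taken by chromosome. On chromosome V, RPS24A had shifts of 0.66, 0.51, 0.65 and 0.67 in HH117, HH123, Hh4 and Hh49. The means of RPS26B were 0.24, 0.42, 0.40 and 0.38, with wide spread between colonies, which gave 0.19, -0.32 and 0.86 in HH117 and -0.02, 0.44 and 0.83 in HH123. Its colonies overlapped those of RPS24A in these lines. Without the doubted replicate 1 of HH123, RPS24A gave 0.61 and RPS26B 0.63 there. On chromosome VII, RPS0A, needed for late 40S maturation, had 0.52 and 0.61 in Hh59 and Hh61, RPS2 0.55 and 0.66, RPS25A 0.51 and 0.64, and RPS26A 0.56 and 0.70, while RPS23A, a decoding-centre protein, was lowest at 0.12 and 0.32. Without the doubted replicate 1 of Hh59 (-0.26 for RPS23A), RPS23A gave 0.31 in that line, RPS25A 0.58, RPS0A 0.70, RPS26A 0.71 and RPS2 0.79, so RPS23A stayed lowest. In the libraries labelled HH152 the same 5 genes gave -0.28 to 0.27, and the 3 genes of chromosome VIII, with no label, gave 0.42 for RPS4B, 0.43 for RPS20 and 0.32 for RPS27B.

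Chromosome VIII was labelled trisomic in HH108, where RPS4B gave 0.86, RPS20 0.82 and RPS27B 0.71, all above every line with 2 labelled copies. On XIV, RPS7B gave 0.83 in HH9 and 0.67 in Hh76, and RPS19B, a pre-40S maturation protein, 0.54 and 0.48. RPS3 gave 0.45 in Hh76 but -0.11 ± 0.03 (SD, n = 3 colonies) in HH9, where its colonies were read at 361.1, 388.9 and 361.6 CPM, and the lines with 2 copies spanned -0.27 to 0.78. It was the only negative value among lines labelled trisomic other than HH152. On XV in Hh11, the 7 members ran from 0.31 for RPS28A to 0.64 for RPS30B, with SDs between colonies of 0.305 to 0.502. Replicate 1 of that line, which is in doubt, gave -0.06 to 0.31 and the other colonies 0.09 to 1.14. Without it the means ran from 0.47 for RPS7A to 0.80 for RPS30B.

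Chromosome XII holds 8 members and was labelled trisomic in Hh77. Their shifts ran from 0.52 for RPS0B and 0.53 for RPS1A, through 0.67 for RPS31, 0.86 for RPS30A, 0.88 for RPS25B, 0.91 for RPS29A and 0.94 for RPS22B, to 1.24 ± 0.32 for RPS28B. The last has wide reference values, -1.46 to 0.86. The median of 0.87 stood above that of the other genes of XII, 0.54, from which no shared level was removed. The other members of this line were 0.84 higher on the log2 scale. With a response of 1 for every member, the median was 0.65, with RPS30A at 0.49 and RPS25B at 0.54, so the excess depends largely on the response used. In Hh18, which has no label for XII, the same genes gave 0.23 (RPS22B) to 0.80 (RPS28B), with a median of 0.57.

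Chromosome XVI gave the only 4-copy line. In Hh8, RPS6A gave 0.89 ± 0.28, RPS9A 1.26 ± 0.36 and RPS23B 0.96 ± 0.08 (SD, n = 3 colonies), and all 3 were above every line with 2 copies. With 3 labelled copies in HH112 the values were 0.40 ± 0.45, 0.89 ± 0.49 and 0.67 ± 0.08, and the colonies of RPS6A were read at 1089, 80.3 and 226.7 CPM. On the partial chromosome X of Hh76, RPS14B (0.51) and RPS21B (0.39), on the left part of the chromosome, lay above every line with 2 copies. RPS22A (0.36), also on the left, and RPS4A (-0.08), on the right, lay within the range of those lines.

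In all, 51 of 57 values for gained chromosomes lay above every line with 2 labelled copies, 50 of 52 did without HH152, and 51 of 52 without replicate 1 of HH123, Hh11 and Hh59 as well. Before removal of the shared level this held for 27 of 57, where it held for 54.3% of the other genes of the same chromosomes. The correction was not applied to those genes, so 51 has no background beside it. The libraries left out were picked from these same data for going against their label or departing from their line. A higher share without them is thus partly set by that choice and is no support.

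**Figure D4:**
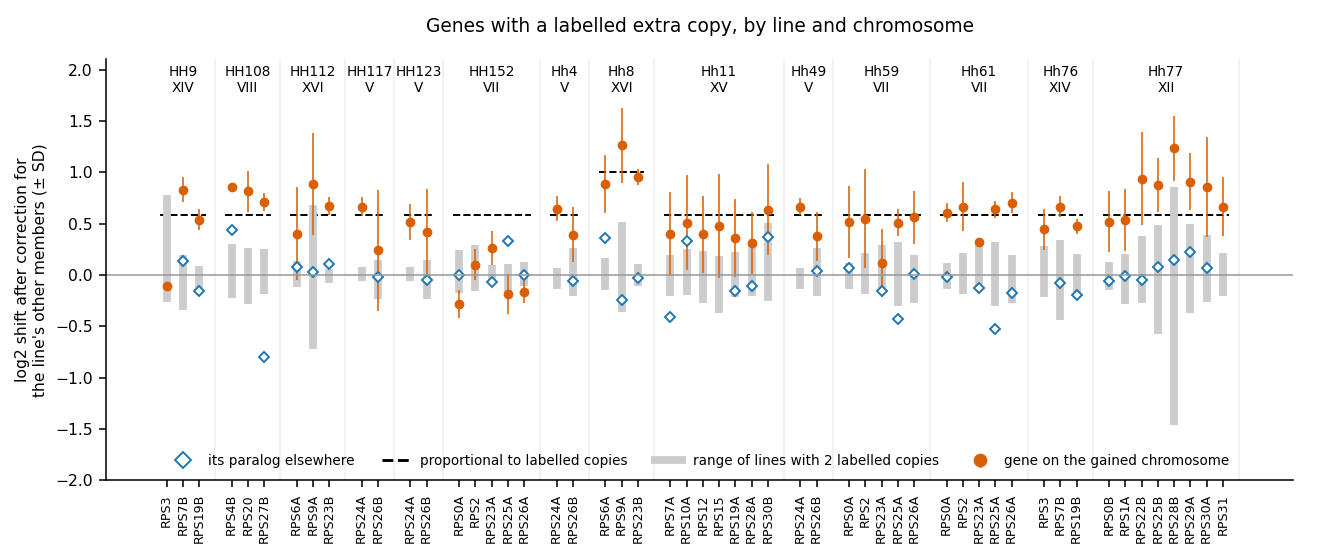
Shift of small-subunit genes with an extra labelled copy (log2, after removing the level shared with other members), by line and chromosome. Circles are means of 3 colonies with their SD, diamonds the paralog elsewhere, grey bars the range of lines with 2 labelled copies, and dashed lines the value in proportion to the copies. Most circles lie near 0.585, those of Hh8 near 1, and those of chromosome VII in HH152 near 0.

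The paralogs of these members on unaltered chromosomes were not moved in one direction. Over 41 values in lines labelled trisomic, the shift of the other copy had a median of -0.02, with 19 above 0 and 22 below. Of these, 4 lay above and 3 below the range of the lines with 2 labelled copies of the gained chromosome. RPS4A was at 0.43 in HH108, a copy of a near-identical pair whose reads are hard to separate, and RPS27A at -0.79 in HH108, where RPS27B had 3 copies. In the 4-copy line Hh8, RPS6B, of another near-identical pair, was at 0.36, above its range. These single values were not tested.

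The last comparison is that of the copies of a pair with each other, as the log2 ratio of copy A over copy B in each library. Over euploid lines and in counts, the ratio differed between the experiments most for RPS9. Its median over euploid lines was -2.31 in HH and -4.24 in Hh, a difference of -1.94, where the SD between lines was 0.39. These ratios pool the HH lines named SC and X, while all Hh lines are named X. Apart, the SC and X medians were -2.26 and -2.59 for RPS9 and 0.30 and 0.07 for RPS6. For RPS9 the 11 HH lines spanned -3.01 to -1.72 and the 5 Hh lines -4.58 to -3.96, so the experiments did not overlap. The ancestors gave -3.13 ± 1.10 and -3.24 ± 0.39 for HH and -4.52 ± 0.18 for Hh. RPS6 was next, with 0.30 in HH and -1.27 in Hh (SD between lines 0.15). Its HH lines spanned -0.16 to 0.45 and its Hh lines -1.41 to -1.16. Its ancestors gave 0.29 ± 0.02, 0.05 ± 0.10 and -1.30 ± 0.06. In FPKM the order was the other way round, with -1.845 for RPS6 and -1.76 for RPS9. Between the Hh ancestor and run 2 of the HH ancestor the difference was -1.475 for RPS21, -1.35 for RPS6 and -1.28 for RPS9. RPS6A was read more than RPS6B in 10 of 11 euploid HH lines, HH115 being the exception, and less in all 5 euploid Hh lines. As the stretches of RPS6 above show, the copies differ at few bases, so the ratio rests on a part of their reads. The Hh strains differ in sequence from the reference genome, and the part of unequal alignment in these ratios was not tested.

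For RPS28 the ratio was 3.47 in HH and 2.51 in Hh (-0.96), and the lines overlapped. Between HH and Hh the RPS25 ratio was 1.15 and 2.06 (0.90), with HH lines at 0.92 to 1.48 and Hh lines at 1.5 to 2.29, which nearly touch. Its ancestors were at 1.18 ± 0.48, 1.52 ± 0.07 and 2.78 ± 0.12. For RPS7 it was 0.87 and 1.31 (0.44), and the lines overlapped. In counts over euploid lines, the pairs that differed least were RPS0 (-0.01) and RPS10 (-0.01), of which RPS0 had ratios near 0 in both experiments. In FPKM the difference was -0.02 for RPS0, 0.19 for RPS10 and 0.16 for RPS7. Between the Hh ancestor and run 2 of the HH ancestor it was 0.285, -0.38 and 0.33.

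In 6 of 23 pairs (RPS6, RPS9 and RPS23 among them) the euploid lines of the experiments did not overlap, and the same held for 12 of 31 large-subunit pairs (38.7%), a larger share. The median size of the difference was 0.22 over the small-subunit pairs and 0.40 over the large-subunit pairs. In FPKM the count of small-subunit pairs was 5, and without the line Hh1 it was 10. The large-subunit pairs were not counted under these settings. Leaving out a line can only keep or narrow a range, so 10 has no background beside it. RPS6, RPS9 and RPS23 did not overlap in FPKM either. RPS25 and RPS29 did not overlap in counts but did in FPKM, where RPS25 spanned 0.16 to 0.94 in HH and 0.85 to 1.72 in Hh. The difference of RPS29 was -0.42 in counts and 0.53 in FPKM, so its direction depends on the measure. The ratios also differed between the runs of the HH ancestor: by 1.57 for RPS21, 1.24 for RPS22 and -0.99 for RPS27, among others. These ratios are a description with no test.

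**Figure D5:**
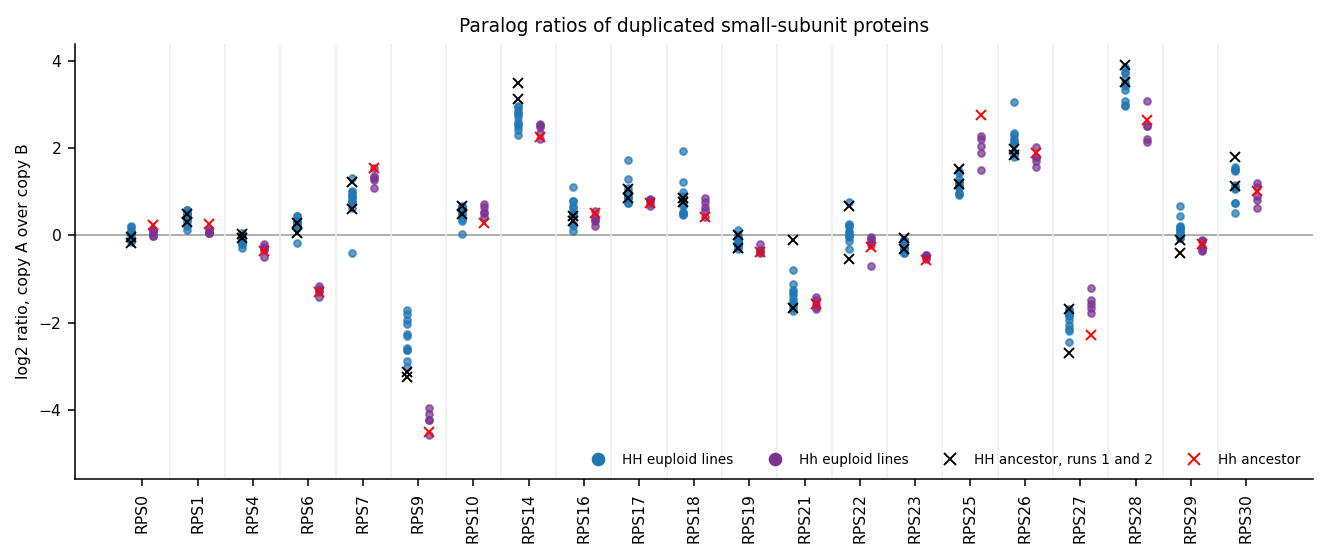
log2 ratio of copy A over copy B for duplicated small-subunit proteins, with circles for the means of euploid lines and crosses for the ancestors, HH to the left and Hh to the right of each name. RPS9 and RPS6 show the HH and Hh values apart (medians -2.31 and -4.24, and 0.30 and -1.27), and RPS0 shows them together.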

How the data were processed

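The authors deposited whole-number counts of reads per gene for each library, made with HTSeq 0.6.1pl after TopHat2 2.1.1 on sacCer3, per the submitters' processing notes, and 1 table of FPKM for all libraries, for which the notes name Cufflinks and Cuffnorm 2.2.1. No source used here says whether the counting used strand. Reads aligned to more than 1 place or to no gene were left out of library sizes.

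Counts of the 3 colonies of a line were summed, since colonies share mutations and karyotype, so p-values between classes reflect the variation among lines. Tests used edgeR 4.0.16 in R 4.3.3 (quasi-likelihood with robust dispersion, TMM, filterByExpr), fitted over all genes with Benjamini-Hochberg adjustment and a threshold of 0.05. HH fits had a term for SC or X in the library names, whose link to runs the labels do not state. Ancestors were fitted as 8 single libraries, with run 1, run 2 and Hh as groups. Copy-number slopes were fitted per altered chromosome. DESeq2 1.42.0 and limma 3.58.1 served alternatives. Ratios and shifts used log2 of CPM (reads scaled to library size) plus 0.5, and the response of a member came from colony deviations. All 55 members passed the filter on low counts in these fits.

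The members, the gene lists and the doubted libraries were chosen with earlier results of these data known. Genes named are those that passed (the 6 largest rises and 6 largest falls where over 12 did), the 3 highest and 3 lowest where fewer than 4 passed, members on gained chromosomes, the 5 pairs that differed most and the 3 that differed least between experiments, 4 members with known control of their own transcript, and the 3 highest and lowest per length in each ancestor. Values of some members are not reported here, and the plots of single genes and pairs leave them out, while counts and medians are over all 55. Sequences and positions are those of the R64 RefSeq reference, matched by locus tag. Scripts were tested on simulated counts.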

Additional observations from a re-analysis of the deposited data

Results flagged for a closer look

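Among 17 groups of 4 to 10 lines examined for a line far from the others, 1 had one, where chance gives about 1 in 20 groups. It was the euploid line HH4 among the 9 euploid SC lines of HH. Its log2 ratio of the RPS7 copies was -0.41, where the other 8 lines spanned 0.62 to 1.03. HH4 was also the line with the lowest share of reads in small-subunit genes, at 0.597%. Its members stood at -1.32 on the log2 scale, relative to the mean of the HH lines. The response to the shared level was 1.14 for RPS7A and 0.39 for RPS7B, so their ratio is lower where that level is lower. The part of this in the ratio of HH4 was not tested.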

How the results depend on the processing

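Of 172 values under other settings, 135 stayed within 1.5 times the reported count or within the spread. Counts of 0 that stayed at 0 are among these, so 135 says little about the class comparisons and the interaction. The difference of the RPS29 copies between the experiments, -0.42 in counts, changed direction to 0.53 in FPKM and 0.21 in the ancestors. Over all 23 pairs, 4 differences changed sign in FPKM and 6 in the ancestors. The class comparisons gave 0 members in HH under every setting tried. In Hh they gave 2 with DESeq2 and 0 to 1 on leaving out a line, again without a share over all genes beside them. The interaction stayed at 0. For the ancestors, the count for Hh against run 2 was 23 to 40 on leaving out a library, lowest without replicate 1 of run 2, and that for run 2 against run 1 was 5 to 16. The count of HH slopes that differed from 0 rose to 9 with the level of the other members as a covariate and was 9 with the doubted libraries left out as well. HH slopes that differed from 1 numbered 2 without the doubted libraries and 3 with the covariate, and the median HH slope was 0.85 with the covariate and 1.00 without the doubted libraries as well. In Hh, 19 slopes differed from 0 without the doubted libraries, and the median slope was 0.70 and 0.92 with the covariate, with and without those libraries. The median shift was 0.78 with no correction for the other members. The count of pairs without overlap was 6 to 10 on leaving out an Hh line, highest without Hh1, with no large-subunit count beside it. Of 42 single pair ratios in FPKM or in the ancestors, 17 moved by more than the spread and 2 changed direction. The cause was not tested. The covariate, the shift and the leaving out of single lines beyond the Hh euploid ones were chosen after seeing the data. Ancestor libraries are not among those in doubt, so that setting gives them no value. The labels do not say what a replicate number shares. Deviations of same-numbered libraries correlated with a mean r of 0.03 in HH lines (-0.01 for other numbers; lowest -0.64) and 0.17 in Hh lines (-0.08; lowest -0.65). The best match had the same number in 34 of 63 and 28 of 45 libraries, where chance gives 33.3%, a hint from the data and not from the design. As not every pair correlated, the numbers were not taken as pairs. The lowest r between same-numbered ancestor libraries was -0.01. With the replicate block, the counts were 0 in the class comparisons and the interaction, 36 for Hh against run 2, and 10 for run 2 against run 1. Depth limits the members read at few counts, RPS9A and RPS28B most.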
